A study of Homo sapiens with 8 samples.

Results

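The clustered protocadherin genes encode cadherin-like receptors of the cell surface and lie side by side on chromosome 5 in an alpha, a beta and a gamma cluster. They were taken from the table of gene expression by their symbols, namely PCDHA or PCDHAC, PCDHB, and PCDHGA, PCDHGB or PCDHGC followed by a number. Of 53 such genes annotated in GENCODE release 44, 47 were among the 25603 genes of the table: 12 of 15 alpha, 15 of 16 beta and 20 of 22 gamma genes. PCDHA1, PCDHA13, PCDHAC2, PCDHB1, PCDHGA12 and PCDHGC5 were not analysed here. All 47 genes are transcribed from the plus strand (GRCh38). Among them the alpha genes lie between positions 140794852 and 141012347, the beta genes between 141094606 and 141249365 and the gamma genes between 141330514 and 141512977.

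HepG2 cells, an established line from a human hepatocarcinoma, were exposed for 4 days to a mixture of UNC1999 and valemetostat tosylate, which inhibit EZH1 and EZH2 and were each used at 1 µM (EZHi, labelled DI in the sample titles), or to 0.2% DMSO (vehicle), and mRNA was sequenced in 4 libraries per group. EZH1 and EZH2 are the methyltransferases of polycomb repressive complex 2, which place methyl groups on lysine 27 of histone H3, and the comparison asks which transcripts change when their activity is blocked. The DMSO share is that of the sample labels, and the study's methods give a lower one. All libraries came from 1 cell line, and the effects of the 2 inhibitors cannot be told apart because they were only given together. The study describes the 4 libraries of each group as independent biological replicates. In bulk RNA, fewer cells making a transcript and less transcript per cell cannot be told apart.

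Clustered protocadherins are best known from neurons, where each cell uses its own combination of isoforms and identical combinations on 2 touching membranes recognise each other. In the alpha and gamma clusters each isoform starts at its own promoter with a large variable exon, which encodes the extracellular and transmembrane parts and is spliced to constant exons shared by the whole cluster. A beta gene is made mostly of a single large exon, and its product lacks that shared cytoplasmic part. Nearly every isoform has its own promoter, many of these promoters carry a conserved element with the core CGCT, and CTCF, the protein that anchors chromatin loops, binds there.

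The promoter element is shown first because it runs through all of the clusters and differs between them. Each line gives 45 bases of the reference genome (RefSeq table of GRCh38.p14, plus strand, 5′ to 3′) upstream of or across the annotated start, and the capitals mark 9 bases that end in the CGCT core. The beta genes with the largest differences between groups are PCDHB7, PCDHB12 and PCDHB8, and PCDHB2, PCDHB3 and PCDHB4 are beta genes that did not pass the test. PCDHA7 is the alpha gene with the highest level, PCDHGB4 the gamma gene with the highest level and PCDHGA1 the gamma gene with the largest difference.
PCDHB7, chr5:141172555-141172599: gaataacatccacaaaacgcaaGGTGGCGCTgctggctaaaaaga
PCDHB12, chr5:141208632-141208676: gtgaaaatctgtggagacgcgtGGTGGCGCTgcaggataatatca
PCDHB8, chr5:141177766-141177810: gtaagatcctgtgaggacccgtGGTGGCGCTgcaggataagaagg
PCDHB2, chr5:141094533-141094577: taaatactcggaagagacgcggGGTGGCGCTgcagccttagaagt
PCDHB3, chr5:141100382-141100426: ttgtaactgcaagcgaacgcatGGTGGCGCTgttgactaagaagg
PCDHB4, chr5:141121712-141121756: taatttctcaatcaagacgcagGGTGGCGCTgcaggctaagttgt
PCDHA7, chr5:140834161-140834205: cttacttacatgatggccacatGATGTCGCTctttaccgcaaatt
PCDHGB4, chr5:141387606-141387650: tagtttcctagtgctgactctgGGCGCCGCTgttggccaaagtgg
PCDHGA1, chr5:141330392-141330436: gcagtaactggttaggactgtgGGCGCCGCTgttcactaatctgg

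Promoter windows of 300 bases, 49 in number, were found for 44 of the 47 genes, the exceptions being PCDHA3, PCDHB6 and PCDHB11. A gene was counted once if any of its windows held a motif, whereas the share over all promoters counts each promoter singly. Searched on both strands, CGCT was present in 10 of 11 alpha, 13 of 13 beta and 20 of 20 gamma genes, against 70.0% of 35116 promoters of the same length in the whole table. The longer GGCGCT, which contains CGCT, was present in 1 of 11 alpha, 13 of 13 beta and 9 of 20 gamma genes and in 21.7% of all promoters. The 9-base strings marked above were picked after the sequences were seen, as the string ending in CGCT that occurs most often in each cluster. GGTGGCGCT, which contains both shorter motifs, was in 13 of 13 beta genes, in 0 of 11 alpha and 0 of 20 gamma genes, and in 0.501% of all promoters. It began between positions -84 and -2 relative to the start, with a median of -66. GATGTCGCT was in 8 of 11 alpha genes and 0.105% of all promoters, and GGCGCCGCT was in 6 of 20 gamma genes and 1.08% of all promoters. The same beta string was therefore present in beta genes that passed the test between groups and in beta genes that did not. The windows were poor in G and C, with a median GC share of 37.3% in alpha, 39.7% in beta and 42.0% in gamma genes, compared with 58.7% over all promoters. The ratio of observed to expected CpG had medians of 0.673, 0.640 and 0.527 in alpha, beta and gamma genes, beside 0.579 over all promoters.

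How much of a gene can be counted differs between the clusters, since reads were counted in union mode, which sets aside a read that falls in exons of more than 1 gene. The constant exons of the alpha and gamma clusters belong to every member there. The share of exonic bases that belong to no other annotated gene was 36.3% to 78.6% in alpha genes (median 50.9%), 35.6% to 72.5% in gamma genes (median 56.2%) and 56.1% to 100% in beta genes (median 93.2%). Values of alpha and gamma genes therefore stand mainly for their variable exons, and PCDHA1 has 7 bases of its own. Similar sequence is a separate limit: for stretches of 150 bases, the read length, the share found again elsewhere in the clusters was 17.9% in PCDHB10, 17.0% in PCDHB8 and 10.5% in PCDHB13, but 0% in PCDHB7, and it was 8.29% in PCDHA7. The effect of such stretches on the values was not tested.

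**Figure D1:**
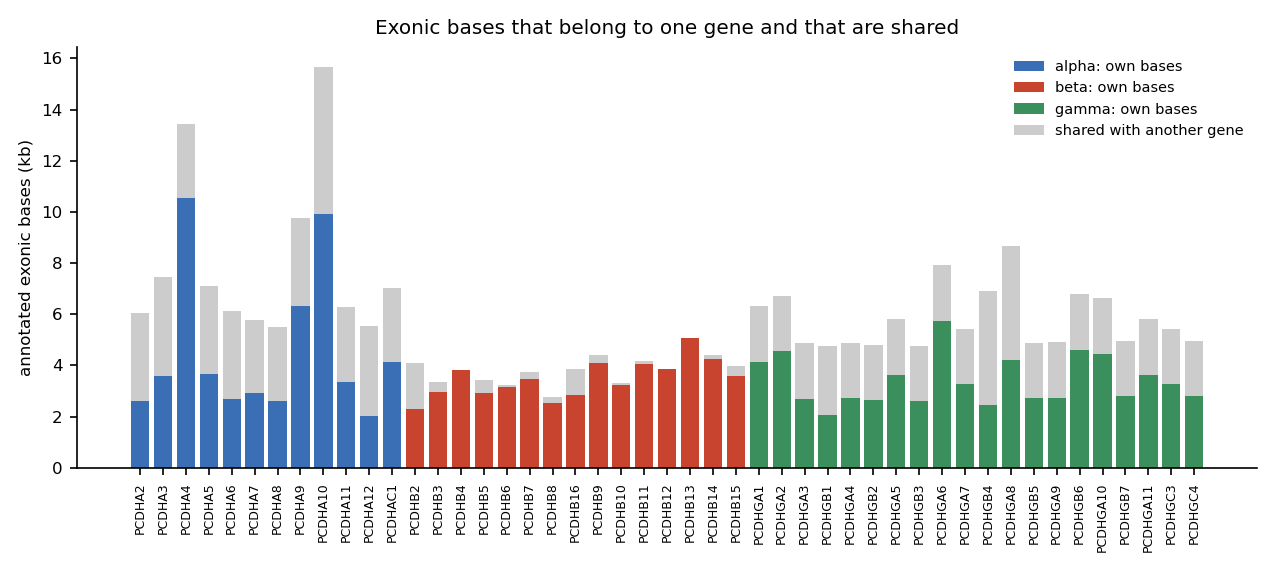
Annotated exonic bases (kb) of the 47 clustered protocadherin genes in their order on chromosome 5. The coloured part of each bar is the stretch that belongs to no other gene and the grey part is shared; beta genes were mostly coloured (median 93.2%), while about as much was shared as not in alpha and gamma genes (medians 50.9% and 56.2% own bases).

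In vehicle-treated cells the clustered protocadherins were low. Expression is given as the deposited log2 values, which the authors corrected for transcript length, and as an estimated FPKM (fragments per kb of transcript, scaled for sequencing depth) for levels. The highest vehicle levels were an estimated FPKM of 2.31 for PCDHB2, 1.31 for PCDHGB4, 0.858 for PCDHB16 and 0.747 for PCDHGB1. When levels were instead set per length of own exonic bases, the order changed to PCDHGB4 with 2.52, PCDHB2 with 1.52 and PCDHGB1 with 1.34. Own exonic bases are pooled over all transcripts of a gene, so this also replaced the mean transcript length. PCDHB4, with 100% own bases, went from 0.121 to 0.0798, so the new order does not stand for shared exons alone. The vehicle values of PCDHB2, 5.61 to 6.18 on the log2 scale, did not overlap with those of PCDHGB4, 4.56 to 5.34, nor with those of PCDHB16, 4.01 to 4.85, whereas PCDHGB4 overlapped with PCDHB16. Testing was limited to genes whose estimated FPKM averaged 0.1 or more over the 8 libraries, which left 1 alpha, 14 beta and 6 gamma genes. The other 11 alpha, 1 beta and 14 gamma genes were below it. PCDHGA4 lay just above the filter with an estimated FPKM of 0.1001 in vehicle, and PCDHGA2 just below it with 0.0852 in vehicle and 0.105 in EZHi. The beta genes PCDHB5 and PCDHB6 passed only through their EZHi values.

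The cell line was checked against marker genes. All 8 hepatocyte markers (ALB, AFP, APOA1, APOB, TTR, SERPINA1, HNF4A and FOXA2) were measured, with a summed estimated FPKM of 22261 to 43221 in vehicle and 24335 to 39089 in EZHi libraries, and 0 of them passed the test, at an unadjusted p under 0.05 as well as adjusted (3 were called higher and 1 lower with the replicate number as a block). Of 8 neuron markers, 5 were in the table and 2 passed the filter, with 0.476 to 0.549 in vehicle and 0.509 to 0.638 in EZHi. The neuron markers ELAVL4, STMN2 and DCX were not among the genes of the table. Of 6 fibroblast markers, COL1A1, COL3A1 and PDGFRB were in the table, with a sum of 12.3 to 15.02 in vehicle and 14.8 to 17.3 in EZHi, and DCN, LUM and COL1A2 were not. No marker of the neuron or fibroblast lists was called or had an unadjusted p under 0.05, and the part of their small differences in the results below was not tested.

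Most beta-cluster genes were higher in EZHi. The limma test called 10 of the 14 beta genes tested higher in EZHi and 0 lower at an adjusted p under 0.05, whereas it called 8.85% of all 20153 genes tested higher and 4.27% lower. PCDHB5 and PCDHB6, which passed the filter only through EZHi, are among the 10 and had to differ to be tested. Among the 12 beta genes that passed by their vehicle level alone, 8 were called higher. The difference was positive in 15 of the 15 beta genes in the table, with a median of 0.77 on the log2 scale, compared with a median of -0.01 over all genes tested, of which 48.0% were positive. In the alpha cluster 1 of 1 gene tested was called higher, and in the gamma cluster 0 of 6 were called, with 1 higher and 0 lower at an unadjusted p under 0.05. Whether the clusters differ from each other in their response was not tested.

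**Figure D2:**
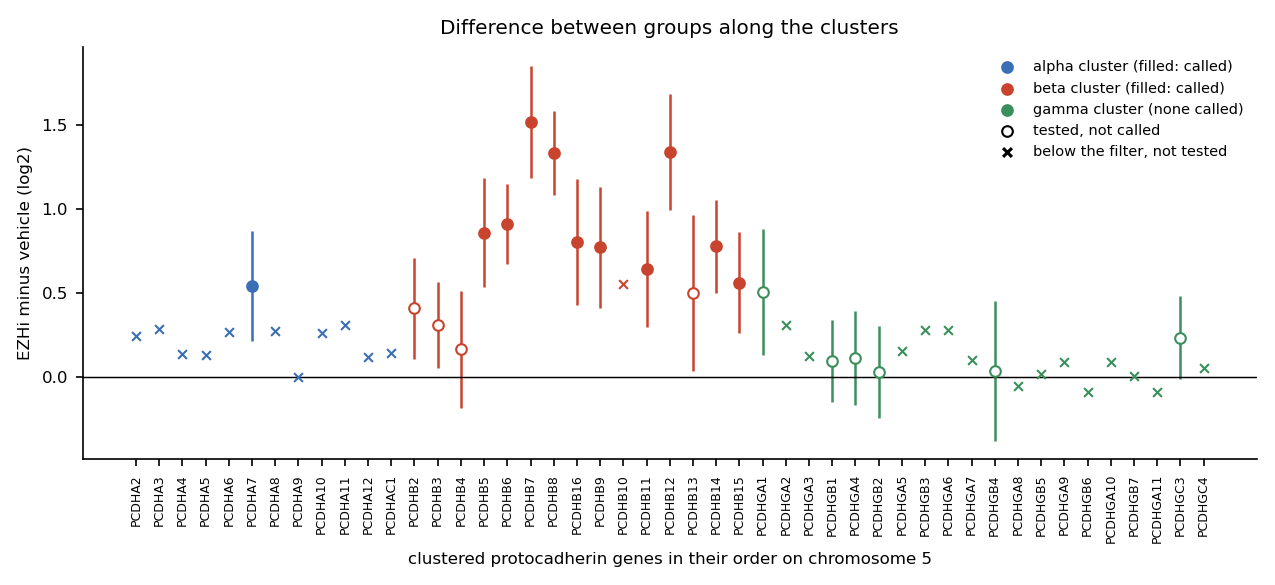
Difference between EZHi and vehicle (log2, EZHi minus vehicle) for the 47 genes in their order on chromosome 5. Circles are genes tested, filled where called by limma, with lines for the unadjusted 95% confidence interval, and crosses are genes below the filter; the beta genes from PCDHB5 to PCDHB9 are all filled, and the highest point is PCDHB7 at 1.52.

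PCDHB7, PCDHB12 and PCDHB8 had the largest differences of all clustered protocadherins. PCDHB7 (ENSG00000113212) was at 2.09, 1.77, 2.40 and 2.14 in vehicle replicates 1 to 4 and at 3.52, 3.39, 3.89 and 3.67 in EZHi replicates 1 to 4. Every EZHi library lay above every vehicle library, and the difference was 1.52 ± 0.15 (SE, n = 4 per group), a fold of 2.87, with a limma adjusted p of 0.000139. Between libraries of equal replicate number it ran from 1.43 to 1.62, a narrow range. PCDHB12 (ENSG00000120328) was at 1.79, 1.84, 1.63 and 1.61 in vehicle and at 3.08, 2.69, 3.52 and 2.94 in EZHi. The groups did not overlap, EZHi replicate 3 was the highest, and the difference was 1.34 ± 0.16 (limma adjusted p 0.000386). PCDHB8 (ENSG00000120322) was at 2.64, 2.75, 2.60 and 2.68 in vehicle and at 3.94, 3.83, 4.30 and 3.95 in EZHi. The vehicle libraries of PCDHB8 were close together, all EZHi libraries lay above them, and the difference was 1.34 ± 0.11 (limma adjusted p 5.17e-05).

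PCDHB6 and PCDHB5, the genes next to PCDHB7 on the side of the cluster start, were near the limit of measurement in vehicle. PCDHB6 was at 1.27, 1.24, 1.19 and 1.26 in vehicle and at 1.95, 2.19, 2.47 and 1.99 in EZHi, a difference of 0.91 ± 0.11 (limma adjusted p 0.000401, and 0.00108 in the fit without a filter). PCDHB5 was at 1.00, 0.99, 1.00 and 1.09 in vehicle and at 1.52, 1.64, 2.18 and 2.16 in EZHi, a difference of 0.86 ± 0.14 (limma adjusted p 0.00363, and 0.00752 in the fit without a filter). In both genes the vehicle libraries were nearly equal, at a level where the regularised log shrinks differences between libraries, and the groups were apart. The estimated FPKM went from 0.0923 to 0.175 for PCDHB6 and from 0.0792 to 0.146 for PCDHB5.

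PCDHB16, PCDHB14 and PCDHB9 rose from higher levels. PCDHB16 was at 4.01, 4.53, 4.85 and 4.31 in vehicle and at 5.13, 5.17, 5.29 and 5.32 in EZHi, a difference of 0.80 ± 0.17 (limma adjusted p 0.0113). The vehicle libraries of PCDHB16 were spread out (SD 0.35) and the EZHi libraries were not (SD 0.09), and the groups did not overlap. After quantile normalization the difference of PCDHB16 was 0.59, with a limma adjusted p of 0.0508. PCDHB14 was at 2.68, 2.72, 3.16 and 3.003 in vehicle and at 3.66, 3.53, 3.77 and 3.70 in EZHi, a difference of 0.78 ± 0.12 (limma adjusted p 0.00253). PCDHB9 was at 2.23, 2.72, 2.71 and 2.62 in vehicle and at 2.99, 3.32, 3.70 and 3.35 in EZHi, a difference of 0.77 ± 0.16 (limma adjusted p 0.0118). In both of these genes the lowest EZHi library lay above the highest vehicle library.

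PCDHB11 and PCDHB15 were called with less margin. PCDHB11 rose by 0.64 ± 0.15 (1.42 to 1.73 in vehicle, 1.88 to 2.66 in EZHi, limma adjusted p 0.0221) and PCDHB15 by 0.56 ± 0.13 (1.75 to 2.10 in vehicle, 2.13 to 2.68 in EZHi, limma adjusted p 0.0224). The groups of each were apart, though by little. When libraries were left out singly, PCDHB11 was not called without vehicle replicate 1 or 4 or EZHi replicate 1 (limma adjusted p up to 0.0673), and PCDHB15 without vehicle replicate 1 or 2 or EZHi replicate 2 or 3 (up to 0.0672). The other 8 called beta genes were called in 8 of 8 such fits. Both calls were also lost with quantile normalization (PCDHB11, limma adjusted p 0.0564; PCDHB15, 0.0834), as was that of PCDHB11 with a pseudocount of 1 (0.0537). With quantile normalization 7 of the 14 beta genes tested were called higher, PCDHB5 and PCDHB6 among them.

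The remaining beta genes were PCDHB2, PCDHB3 and PCDHB4 at the start of the cluster, PCDHB13 near its end, and PCDHB10, which was below the filter. PCDHB2, the most abundant of them, was at 5.79, 6.18, 5.61 and 5.90 in vehicle and at 6.29, 6.43, 6.30 and 6.09 in EZHi. Its groups overlapped, and the difference of 0.41 ± 0.13 had a limma adjusted p of 0.0799 (0.0184 with the replicate number as a block, 0.0292 without vehicle replicate 2). With libraries centred on abundant genes it was 0.0301. PCDHB13 was at 2.94, 2.27, 3.29 and 2.75 in vehicle and at 3.53, 2.95, 3.39 and 3.37 in EZHi. Here the vehicle libraries had the widest spread of the beta genes (SD 0.43), and the difference of 0.50 ± 0.21 had a limma adjusted p of 0.156 (0.0117 with the block, 0.0497 without vehicle replicate 3). PCDHB10 was at 0.87, 0.76, 0.70 and 0.78 in vehicle and at 1.24, 1.18, 1.53 and 1.35 in EZHi, a difference of 0.55 that was not tested at the filter used. The groups of PCDHB10 were apart, and without a filter its limma adjusted p was 0.0028. PCDHB3 differed by 0.31 ± 0.11 (limma adjusted p 0.117, 0.0117 without vehicle replicate 3, and 0.0492 with libraries centred on abundant genes). PCDHB4 differed by 0.16 ± 0.16 (limma adjusted p 0.572), with a 95% interval from -0.19 to 0.51, and was higher in 2 of 4 pairs.

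With the replicate number as a block, 12 of the 14 beta genes tested were called higher, PCDHB2 and PCDHB13 being added, while 14.9% of all genes tested were called higher and 15.1% lower in that fit. Groups were apart with EZHi higher in 10 of the 14 beta genes tested, against 10.7% of all genes tested, and with vehicle higher in 0, against 7.93%. PCDHB10, below the filter, was also apart. PCDHB5 and PCDHB6, which passed the filter only through EZHi, are among the 12 and the 10 and had to differ to be tested.

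**Figure D3:**
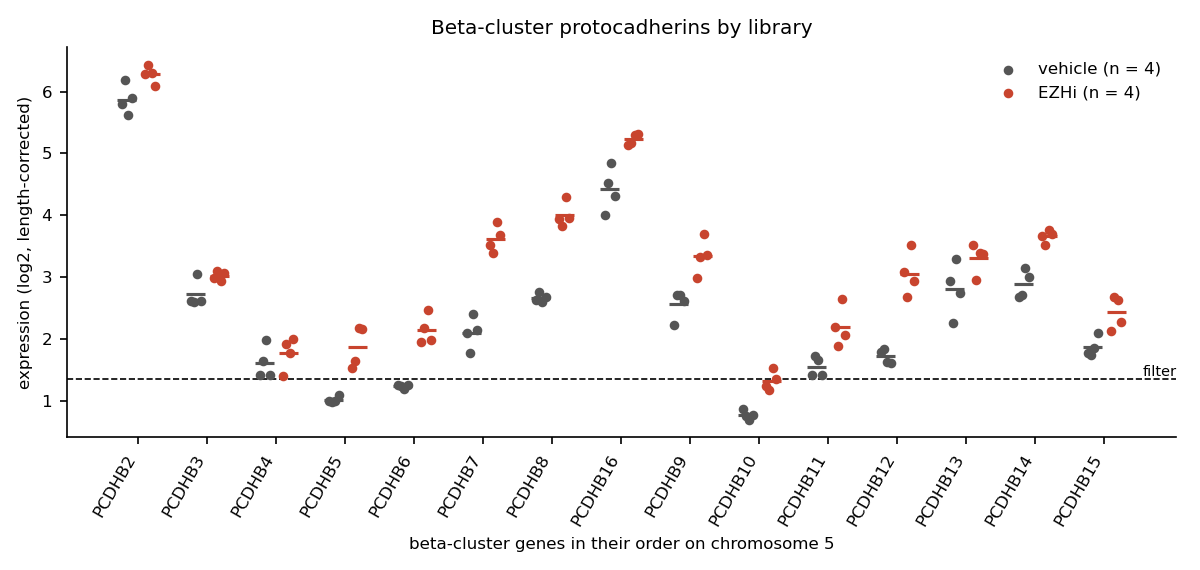
Expression (log2, length-corrected) of the 15 beta-cluster genes in each of the 4 vehicle (grey) and 4 EZHi (red) libraries, in their order on chromosome 5, with a bar at each mean and a dashed line at the filter. From PCDHB5 to PCDHB12 the EZHi points lie above the vehicle points in each gene, whereas the groups overlap in PCDHB2, PCDHB3, PCDHB4 and PCDHB13.

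Along the chromosome, called and uncalled beta genes of the main fit lay in runs. The first 3 beta genes of the table, PCDHB2 (141094606 to 141098703), PCDHB3 and PCDHB4, were not called. The 6 genes that follow, PCDHB5, PCDHB6, PCDHB7, PCDHB8, PCDHB16 and PCDHB9, were all called, as were PCDHB11 and PCDHB12 behind the untested PCDHB10. PCDHB13 was not called, and PCDHB14 and PCDHB15 (141245395 to 141249365), the last of the cluster, were. The runs depend on the fit. With the block PCDHB2 and PCDHB13 were called too, and PCDHB2 and PCDHB3 with libraries centred on genes of an estimated FPKM of at least 10. This is a description of an order, and no test of position was made.

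The alpha cluster was represented in the test by PCDHA7 alone. PCDHA7 (ENSG00000204963) was at 2.40, 2.53, 1.81 and 2.31 in vehicle and at 2.96, 2.75, 2.81 and 2.69 in EZHi. The groups did not overlap, but vehicle replicate 3 was well below the others, and the difference was 0.54 ± 0.15 (limma adjusted p 0.0383). The call on PCDHA7 was lost without vehicle replicate 1 or 4 or any single EZHi library (limma adjusted p 0.0597 to 0.1001), with quantile normalization (0.37, limma adjusted p 0.141) and without a filter (limma adjusted p 0.0531). The other 11 alpha genes had vehicle means of -2.44 to 1.00 and differences of -0.00427 to 0.31. PCDHA11, with the largest of these differences, was at 0.54, 0.67, 0.47 and 0.46 in vehicle and at 0.60, 0.80, 1.00 and 0.97 in EZHi, and its groups overlapped. Over the cluster the difference was positive in 11 of 12 genes, with a median of 0.25, and groups were apart with EZHi higher in 5 of 12. Over all 25603 genes without a filter, groups were apart with EZHi higher in 10.6% and with vehicle higher in 6.41%. Without a filter 5 alpha genes were called higher (PCDHA3, PCDHA4, PCDHA6, PCDHA12 and PCDHAC1), beside 8.28% of all 25603 genes (3.15% were called lower). Of these, PCDHA4 and PCDHA12 had an SD of 0.001 between vehicle libraries, at an estimated FPKM of 0.0092 and 0.0097. Such values lie near the floor that the regularised log sets, so this small SD does not show close replication. Both genes are also among the 5 with groups apart. PCDHAC1, PCDHA3 and PCDHA6 had SDs of 0.044, 0.061 and 0.096.

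The gamma cluster showed no called difference, although it holds some of the most abundant clustered protocadherins. PCDHGB4 (ENSG00000253953), the highest, was at 5.19, 5.34, 4.56 and 5.05 in vehicle and at 5.04, 5.38, 5.08 and 4.78 in EZHi. The groups overlapped over nearly their whole range, and the difference was 0.04 ± 0.19 (limma adjusted p 0.935), with a 95% interval from -0.38 to 0.45. PCDHGB1 differed by 0.09 ± 0.11 (limma adjusted p 0.651), with an interval from -0.15 to 0.34. This interval ends below the differences of the called beta genes. It overlaps the 95% intervals of PCDHB11 (0.30 to 0.99) and PCDHB15 (0.26 to 0.86). PCDHGA1, the gene with the largest gamma difference, was at 2.33, 3.19, 2.53 and 2.87 in vehicle and at 3.31, 3.27, 3.24 and 3.12 in EZHi. The EZHi libraries of PCDHGA1 were close together and overlapped with vehicle replicate 2 alone. Its difference was 0.50 ± 0.17 (limma adjusted p 0.081), with a 95% interval from 0.13 to 0.88. That interval covers the differences of the called genes PCDHB5, PCDHB16, PCDHB14, PCDHB9, PCDHB11 and PCDHB15. PCDHGA1 was called with the block (limma adjusted p 0.0317) and without vehicle replicate 2 (0.013).

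PCDHGC3, whose product is known to bind the Wnt pathway scaffold AXIN1, differed by 0.23 ± 0.11 (limma adjusted p 0.219). PCDHGA4 and PCDHGB2 differed by 0.11 and 0.03, and the differences of PCDHGB1, PCDHGA4, PCDHGB2 and PCDHGB4 turned negative under quantile normalization. The 14 gamma genes below the filter had differences of -0.09 to 0.31. Over the cluster the difference was positive in 17 of 20 genes, with a median of 0.09. Groups were apart with EZHi higher in 2 gamma genes and with vehicle higher in 1, shares of the 20 genes near those over all genes given above. The one with vehicle higher was PCDHGA11, with means of -1.52 in vehicle and -1.62 in EZHi. Its groups were barely apart: vehicle replicate 3 was at -1.616 and the EZHi libraries were at -1.619 to -1.617, near the floor.

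Summing estimated FPKM over the genes of a cluster gives its level per library. The beta sum was 4.90, 5.83, 5.56 and 5.32 in vehicle and 8.17, 8.41, 9.28 and 8.21 in EZHi, a ratio of 1.58. PCDHB2 made up 42.8% of the beta sum in vehicle and 35.7% in EZHi. The gamma sum was 3.28, 3.62, 2.86 and 3.36 in vehicle and 3.58, 3.85, 3.55 and 3.23 in EZHi, a ratio of 1.08, with overlapping groups. The alpha sum was 0.492, 0.515, 0.435 and 0.479 in vehicle and 0.635, 0.599, 0.635 and 0.598 in EZHi, a ratio of 1.28, with 39.7% of it from PCDHA7 in vehicle. No test was made on these sums.

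**Figure D4:**
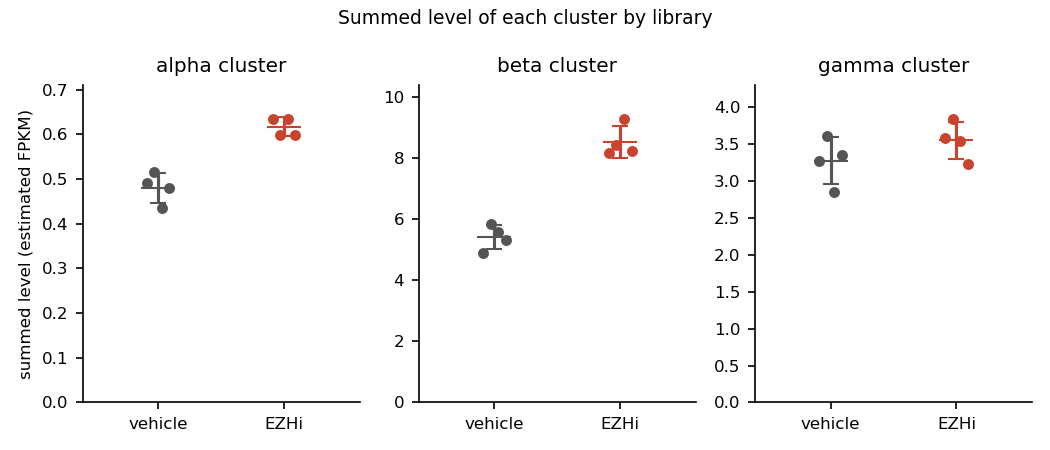
Summed estimated FPKM of the alpha (12 genes), beta (15 genes) and gamma (20 genes) clusters in each library, with the mean and SD of 4 libraries per group on axes that start at 0. The vehicle and EZHi points are apart in the alpha and beta panels and overlap in the gamma panel.

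Genes around the clusters were compared in the same fit. Of 27 protein-coding genes tested within 500 kb of the outermost members or between them, 1 was called higher and 3 lower. SLC35A4, a solute carrier family member upstream of the alpha cluster, rose by 0.47 ± 0.12 (limma adjusted p 0.0277). PFDN1, a subunit of the prefoldin chaperone, fell by 0.27 (limma adjusted p 0.0121), HBEGF, an EGF receptor ligand, fell by 0.50 (limma adjusted p 0.0495) and DIAPH1, an actin-nucleating formin just behind the gamma cluster, fell by 0.29 (limma adjusted p 0.017). TAF7, a subunit of the general transcription factor TFIID whose gene lies between the beta and gamma clusters, differed by -0.05 ± 0.08 (limma adjusted p 0.747). SLC25A2, between the same clusters, was not analysed here. The 3 lower calls were lost with libraries centred on abundant genes, and the call on SLC35A4 with quantile normalization and without vehicle replicate 3 or EZHi replicate 1 or 4. Without vehicle replicate 1 or 4 or EZHi replicate 4, 1 neighbouring gene was called lower. With the block 4 of the 27 were called higher (SLC35A4, ARAP3, PCDH1 and PCDH12) and 8 lower.

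Non-clustered protocadherins are encoded outside the clusters and have their own cytoplasmic domains. Of 12 listed, 5 were in the table and 2 were tested. Below the filter, PCDH9 differed by 0.84 and its groups were apart with EZHi higher. PCDH15 and PCDH19, also below it, differed by 0.04 each, with overlapping groups. The 2 tested, PCDH1 and PCDH12, lie downstream of the gamma cluster and are also among the neighbouring genes above. PCDH1, an epithelial member encoded downstream of the gamma cluster, was at 5.46, 6.34, 4.42 and 4.69 in vehicle and at 6.25, 7.08, 5.47 and 5.72 in EZHi. The groups overlapped, and EZHi was higher in 4 of 4 pairs of equal number. With 0 of the 2 genes called (1 higher at an unadjusted p under 0.05), the difference of PCDH1, 0.90 ± 0.45, had a limma adjusted p of 0.239, and of 0.000229 with the block. With the block both tested genes were called higher (PCDH12, limma adjusted p 0.0087).

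Of 15 genes for chromatin loops and silencing at these clusters, 0 were called higher and 2 lower (3 each way at an unadjusted p under 0.05). CTCF differed by 0.01 ± 0.07 (limma adjusted p 0.939), and SETDB1, a histone H3 lysine 9 methyltransferase, by 0.03 ± 0.09 (limma adjusted p 0.889). WAPL, which releases cohesin from chromatin, fell by 0.23 (limma adjusted p 0.0273) and SMCHD1, a chromatin protein that represses protocadherin genes, fell by 0.26 (limma adjusted p 0.0301). SMCHD1 was at 9.81, 9.87, 10.02 and 9.84 in vehicle and at 9.67, 9.54, 9.67 and 9.62 in EZHi, and the groups were apart. The calls on WAPL and SMCHD1 were lost with quantile normalization, with centring on abundant genes, and in 5 of 8 fits that left out 1 library (vehicle replicate 2 or 4, or EZHi replicate 1, 2 or 4). With an untrended prior, and without vehicle replicate 3 or EZHi replicate 3, 1 gene of the list was called lower. With the block 3 of the 15 were called higher and 5 lower.

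Among 17 genes whose products cleave protocadherins or act below them, 1 was called higher and 1 lower. APH1B, a subunit of gamma-secretase, was at 5.38, 5.32, 5.50 and 5.31 in vehicle and at 6.47, 6.48, 6.84 and 6.51 in EZHi. The groups were far apart, and the difference was 1.19 ± 0.11 (limma adjusted p 0.000103). NCKAP1, a subunit of the actin-regulating WAVE complex, fell by 0.27 (limma adjusted p 0.0259), a call lost with quantile normalization, with centring on abundant genes and without vehicle replicate 1, 2 or 4 or EZHi replicate 4. With the block 2 of the 17 were called higher and 6 lower.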

How the data were processed

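RNA-seq libraries of HepG2 cells (4 vehicle, 4 EZHi, grouped by their titles) were analysed from the deposited table. The authors mapped paired reads of 150 bases to hg38 with HISAT2 2.2.1 and counted them over exons without regard to strand with HTSeq 0.9.1 in union mode. Tool versions are from the submitters' processing notes, and the study's methods name other versions of HISAT2 and DESeq2, used by the authors. The authors removed genes with few reads and deposited values on a log2 scale, which they obtained with the regularised log of DESeq2 1.40.2 and a correction for mean transcript length. This shrinks differences of low genes, so their fold changes are understated. The annotation release they used is not given in the sources used here. Depth per library is unknown, and no counting interval is given.

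Values were divided by a common scale, 25.6 M normalized reads, after being taken out of the log, to give estimated FPKM. Genes with a mean of at least 0.1 were tested with limma 3.58.1 in R 4.3.3 (lmFit, then eBayes with its trend option; the model held the group and no other term; the test was two-sided), Benjamini-Hochberg adjusted over all 20153 genes tested, and called at an adjusted p under 0.05. The fit was tested on simulated data. Libraries of equal replicate number were more alike than others. Deviations from the group means correlated with r from 0.216 to 0.634 for equal numbers and from -0.582 to 0.199 for unequal ones. A fit with the number as a block was run as an alternative. Other alternatives changed the filter, a pseudocount (0.1, 0.5 or 1), the scaling, the prior and the libraries used.

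Exonic bases and coordinates came from GENCODE release 44, promoters from the RefSeq table of GRCh38.p14. Summaries and figures were made in Python 3.11.15 with pandas 2.3.3, numpy 2.4.6 and matplotlib 3.10.9. Values in every library are given for called members (the 8 largest differences where a cluster had more), for the most abundant member of each cluster and for the largest difference among those not called; other lists are given by their called genes and a few fixed ones. PCDHB13, PCDHB11 and PCDHB15 were added after their values were seen. Members and lists were chosen with earlier results of these data known.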

Additional observations from a re-analysis of the deposited data

Results flagged for a closer look

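For the 21 clustered protocadherins tested, each group of 4 libraries was checked for a library far from the other 3, which chance gives in about 1 of 20 groups. Of 42 groups, 1 held such a library, where 2.1 would arise by chance. It was PCDHB3 in vehicle replicate 3, at 3.06, while the other vehicle libraries were at 2.59 to 2.62. The gap made up 0.933 of the range of the group, above Dixon's critical value. Without that library the difference of PCDHB3 was 0.42, with a limma adjusted p of 0.0117, so that PCDHB3 would be called higher.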

How the results depend on the processing

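Of 360 log2 differences of the 21 tested genes under the alternatives, 321 kept their direction and their side of the threshold. Vehicle levels set per own exonic length moved by more than 1 SD in 17 of the 21 genes. That setting replaces the mean transcript length as well as leaving out shared bases. PCDHB5, PCDHB6, PCDHB7, PCDHB8, PCDHB9, PCDHB12 and PCDHB14 were called under each of their 17 alternatives. Of these, PCDHB5 and PCDHB6 passed the main filter only through EZHi. At an estimated FPKM of at least 1, 1 beta gene, 0 alpha genes and 0 neighbouring genes were called higher, as fewer genes were tested. Without a filter 5 alpha genes and 1 non-clustered protocadherin were called higher. With quantile normalization 7 beta genes, 0 alpha genes, 0 neighbouring, 1 chromatin and 2 partner genes were called higher, and 1 neighbouring, 0 chromatin and 0 partner genes lower. With libraries centred on genes of an estimated FPKM of at least 10, 2504 genes of the whole table were called higher and 326 lower, against 1784 and 860. In that setting 12 beta genes were called higher, PCDHB2 and PCDHB3 being added. Also called were 1 gamma, 3 chromatin and 2 partner genes higher, and 0 neighbouring, 0 chromatin and 0 partner genes lower. The replicate block gave 3003 higher and 3048 lower calls over the whole table. With the block 1 gamma gene (PCDHGA1), 4 neighbouring genes, 3 chromatin and 2 partner genes were called higher. The 4 neighbouring genes include the 2 non-clustered protocadherins called higher in that fit. In the same fit 8 neighbouring, 5 chromatin and 6 partner genes were called lower. The block ended no call on a clustered protocadherin. With an untrended prior 1 chromatin gene was called lower. Leaving out 1 library at a time, 8 to 12 beta, 0 to 1 alpha, 0 to 1 gamma, 0 to 2 neighbouring and 0 to 1 non-clustered genes were called higher, and 1 to 3 neighbouring, 0 to 2 chromatin and 0 to 1 partner genes lower. The difference reversed with quantile normalization in PCDHGB1 (-0.12), PCDHGA4 (-0.014), PCDHGB2 (-0.12) and PCDHGB4 (-0.17). It also reversed when 1 library was left out in PCDHGB2 (-0.045 to 0.10) and in PCDHGB4 (-0.12 to 0.14). Except where said, the cause of these changes was not tested. Read depth is unknown, and the lowest genes have values near a floor that the regularised log sets.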

Other observations

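Of 6 lncRNA genes inside or between the clusters, 4 were tested and 0 were called by limma, although 2 were higher at an unadjusted p under 0.05 and with the replicate block. The one annotated from 141326210 to 141329363, between the beta and gamma clusters, was at 3.15, 3.38, 3.41 and 3.57 in vehicle and at 3.56, 3.81, 3.55 and 3.96 in EZHi, and its groups overlapped.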
